A study of Rattus norvegicus with 20 samples.

Results

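The repressor arm of the circadian clock was examined in the medial prefrontal cortex (mPFC) of rats after chronic treatment with lysergic acid diethylamide (LSD) or saline. It was taken as 10 genes, chosen by symbol from the 31038 genes of the count matrix: Per1, Per2, Per3, Cry1, Cry2, Nr1d1, Nr1d2, Ciart, Bhlhe40 and Bhlhe41. All 10 were kept by the filter on low counts (5 reads or more in 10 libraries or more), among 16605 genes kept in all. LSD is a psychedelic drug that acts on serotonin receptors.

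The comparison asked which transcriptional differences remained long after the drug was stopped. Both groups were male Sprague-Dawley rats aged 6 to 8 weeks and weighing 180 to 200 g when treatment began, without genetic modification, housed singly under 12 h of light and 12 h of dark. One group of 10 rats (LSD) received 0.16 mg/kg LSD by intraperitoneal injection every other day for 90 days, and the other 10 rats (Saline) received sterile saline on the same schedule. Per the series' labels the tissue was taken after 3 weeks without injections. The study's methods give a slightly longer interval and somewhat older rats. Polyadenylated RNA from whole dissected mPFC of one hemisphere gave 1 library per rat. The hour of the day at which the rats were killed is not given in the sources used here.

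The clock runs in most cells, cortical neurons and glia included, as a feedback loop of transcription. CLOCK or its relative NPAS2 pairs with BMAL1 (encoded by Arntl) and binds E-box sequences in the promoters of the Per, Cry, Nr1d, Ciart and Bhlhe genes. The encoded proteins then repress the loop at separate points, and PER and CRY bind and silence the CLOCK-BMAL1 pair. REV-ERB proteins, encoded by Nr1d1 and Nr1d2, compete with the activating ROR receptors for RORE sequences and repress Arntl. Transcripts of the loop rise and fall over the day, and several Per and Bhlhe genes also respond to neuronal activity and to glucocorticoid hormones.

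The promoters of 3 of these genes are shown because each holds letter matches to sequences that factors of the clock bind. They are RefSeq sequences of the GRCr8 assembly, which is not the build the reads were aligned to, and each runs from 250 bases before to 50 bases after an annotated start site. Capitals mark the E-box CACGTG, the related sequence CACGTT, which reads as AACGTG on the opposite strand, and the D-box TTATGTAA, which reads as TTACATAA there. D-boxes are the sites of Dbp, Tef and Hlf, the clock's output activators, and of their competitor Nfil3.
Per2, window chr9:99496944-99497243 on the minus strand: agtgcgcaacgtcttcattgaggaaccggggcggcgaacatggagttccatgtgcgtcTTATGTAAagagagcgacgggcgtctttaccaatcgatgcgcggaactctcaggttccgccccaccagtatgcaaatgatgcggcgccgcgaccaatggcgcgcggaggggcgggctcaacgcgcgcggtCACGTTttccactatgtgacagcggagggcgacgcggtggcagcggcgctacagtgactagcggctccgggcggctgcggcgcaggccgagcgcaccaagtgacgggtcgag
Ciart, window chr2:186112197-186112496 on the minus strand: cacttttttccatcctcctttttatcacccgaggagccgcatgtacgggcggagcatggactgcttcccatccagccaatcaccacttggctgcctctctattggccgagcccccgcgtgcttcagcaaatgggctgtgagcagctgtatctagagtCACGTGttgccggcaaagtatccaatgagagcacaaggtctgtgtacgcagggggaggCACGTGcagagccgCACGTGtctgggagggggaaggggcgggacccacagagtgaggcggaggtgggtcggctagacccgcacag
Bhlhe40, window chr4:143174200-143174499 on the plus strand: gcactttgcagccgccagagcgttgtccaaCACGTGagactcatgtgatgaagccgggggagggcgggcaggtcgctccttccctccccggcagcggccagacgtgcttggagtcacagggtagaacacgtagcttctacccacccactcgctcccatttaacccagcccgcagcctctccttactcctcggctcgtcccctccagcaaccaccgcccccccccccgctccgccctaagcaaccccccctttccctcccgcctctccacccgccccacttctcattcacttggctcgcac

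Ciart carried 3 E-boxes, whose first bases lay at -93, -35 and -21 relative to the start site. Bhlhe40 carried 1, at -220. The Per2 window had no E-box but had the CACGTT form at -62 and a D-box at -192. Both strands were searched. The E-box differs from CACGTT in the last letter, so no match counted under both. Of the 10 genes, 9 had a promoter entry and Cry1 had none. CACGTG occurred in at least 1 window of 4 of these 9 genes (Ciart, Bhlhe40, Bhlhe41 and Nr1d1) and in 6.42% of all 33469 RefSeq promoter windows. CACGTT, in either orientation, occurred in 3 (Per2, Cry2 and Nr1d1) and in 4.83% of all windows, and the D-box in Per2 alone and in 0.893% of all windows. The cyclic AMP response element TGACGTCA, present in 1.83% of windows, and the RORE core TAGGTCA, searched in both orientations and present in 2.63%, were found in none of the 9. These are matches of letters in short windows.

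Reads on genes ranged from 16346629 to 25552681 per LSD rat (median 2.03e+07) and from 11098076 to 24201351 per Saline rat (median 1.68e+07). Levels are given as RPM, each library's reads scaled to a common total with edgeR's TMM factors. Over all genes, 1076 were higher and 1418 lower in LSD rats by edgeR's quasi-likelihood test at a Benjamini-Hochberg adjusted p under 0.05. With scaling by total counts, genes called higher numbered 1504 and genes called lower 858. Marker genes of neurons, astrocytes, oligodendrocytes, microglia and endothelium were read in every group, with no marker at 0. Of 10 neuron markers 1 was higher (Gad2, 0.23) and 1 lower (Slc32a1, -0.34), of 8 astrocyte markers 1 was lower (Aldoc, -0.34), and none of the 8 microglia or 8 endothelial markers passed. All 8 oligodendrocyte markers had negative fold changes and 1, Cldn11, was lower (-0.46, edgeR adjusted p = 0.0175), with summed levels of 2384 to 6052 RPM in LSD and 2418 to 7833 in Saline rats. All 8 markers of striatum, the region below the mPFC, also had negative fold changes, 7 of them at an unadjusted p under 0.05 and none at an adjusted p under 0.05 (DESeq2 called 0), with log2 fold changes down to -1.06 and sums of 280 to 554 RPM in LSD and 309 to 800 in Saline rats. Their sum exceeded 500 RPM in 4 rats (LSD replicate 9 and Saline replicates 2, 8 and 9) and was at most 398 in the other 16. Saline replicates 2, 8 and 9 were also high in oligodendrocyte markers, and LSD replicate 9 was the highest LSD rat in them (6052 RPM, next 4554). Fold changes of the repressor and activator genes, and the ratios and correlations that passed, are therefore given below with and without these 4 rats. In bulk tissue, fewer cells of a type and less RNA per cell cannot be told apart.

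Of the 10 repressor genes 4, namely Per2, Per3, Nr1d2 and Bhlhe40, were higher in LSD rats and none was lower. Over all genes tested, 6.48% passed in the upward and 8.54% in the downward direction. The fold change was above 0 in 9 of the 10 genes, Nr1d1 being the exception, and their median log2 fold change was 0.25 against 0.00 for all genes tested. At an unadjusted p under 0.05, 6 were higher and 0 lower, where 14.4% of all genes were higher and 16.4% lower. DESeq2 called 5 higher and 0 lower, where it called 9.68% higher and 12.4% lower of the 14029 genes to which it gave an adjusted p. Without the 4 rats high in striatum markers, 5 were higher (Per2, Per3, Nr1d2, Ciart and Bhlhe41), where 10.2% of all genes passed upward.

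**Figure D1:**
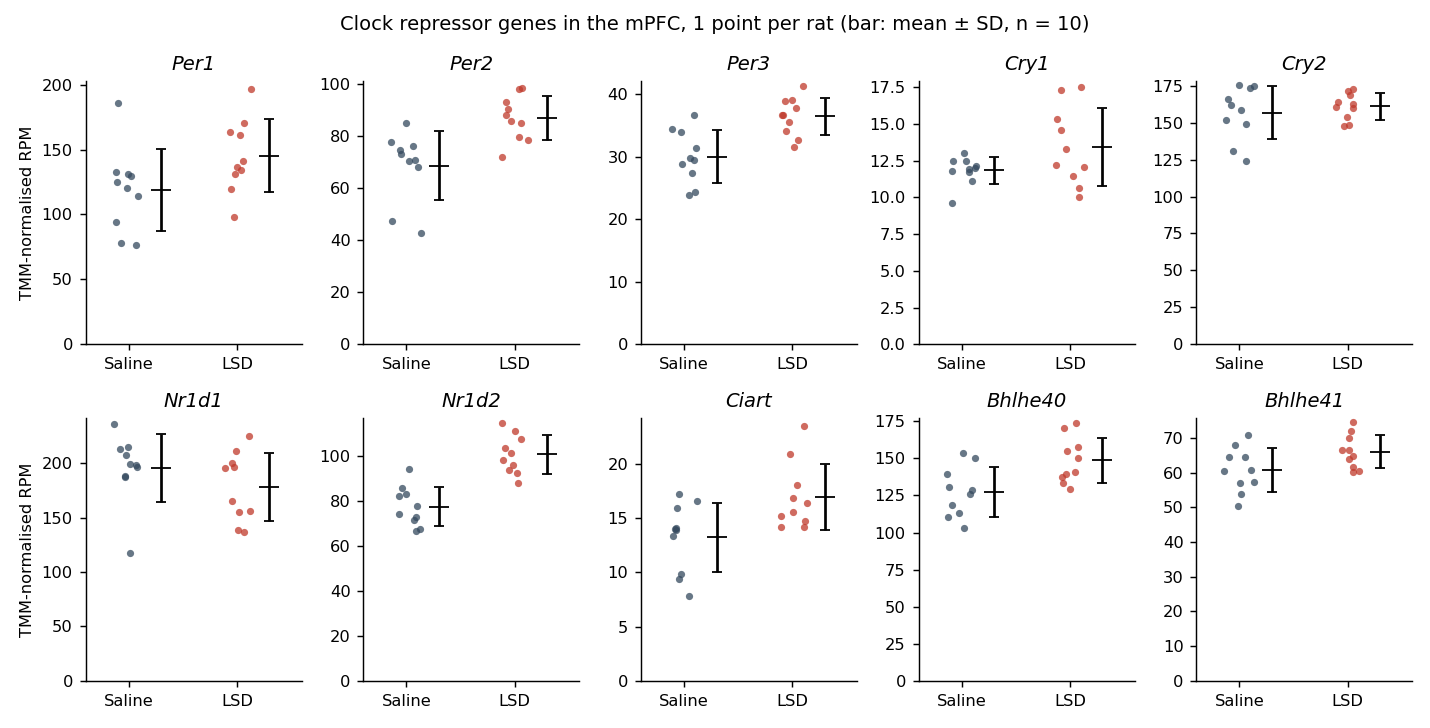
TMM-normalised RPM (linear axis from 0) of each of the 10 repressor genes, 1 point per rat, with the mean and SD of the 10 rats of each group as a bar. In Nr1d2 the 10 LSD rats lie between 88.0 and 114 RPM and 9 of the 10 Saline rats lie below them, while in Cry2 and Nr1d1 the groups lie over the same range.

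The 3 period genes encode the PER proteins, the partners through which CRY is carried to CLOCK-BMAL1. Per2 ranged from 72.0 to 98.3 RPM in LSD rats (median 86.9) and from 42.9 to 85.1 RPM in Saline rats (median 71.9). All 10 LSD rats lay above the Saline median, and 6 lay above every Saline rat. Its mean was 86.8 ± 8.57 RPM in LSD and 68.5 ± 13.3 in Saline rats (SD, n = 10 each), a log2 fold change of 0.34 (SE 0.098, edgeR adjusted p = 0.0235). The lowest Saline value belonged to replicate 2, and without the 4 rats high in striatum markers the log2 fold change was 0.22 (edgeR adjusted p = 0.0272).

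Per3 ranged from 31.5 to 41.3 RPM in LSD rats (median 36.7) and from 23.9 to 36.6 RPM in Saline rats (median 29.6). Here too 10 LSD rats exceeded the Saline median and 6 exceeded every Saline rat, and 7 Saline rats lay below every LSD rat. The means were 36.4 ± 3.02 and 30.0 ± 4.21 RPM (SD, n = 10 each), with a log2 fold change of 0.28 (SE 0.073, edgeR adjusted p = 0.0155), and 0.22 without the 4 rats (edgeR adjusted p = 0.0274). Per3 is the period gene whose loss disturbs the core rhythm least.

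Per1 responds fastest of the 3 to activity and hormone signals, and its coefficient of variation was 19.4% in LSD and 26.8% in Saline rats. It ranged from 98.2 to 197 RPM in LSD rats (median 139) and from 76.4 to 186 RPM in Saline rats (median 123). The groups overlapped over most of their range, with 8 LSD rats above the Saline median and 1 above every Saline rat. Its log2 fold change of 0.29 had an SE of 0.136 and did not pass (edgeR adjusted p = 0.150), nor did 0.27 without the 4 rats (edgeR adjusted p = 0.0962). One Saline rat, replicate 8, stood at 186 RPM with the next at 133, and without it Per1 passed with a log2 fold change of 0.39 (edgeR adjusted p = 0.0380).

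The cryptochromes CRY1 and CRY2 are the direct inhibitors of CLOCK-BMAL1. Cry2 ranged from 148 to 173 RPM in LSD rats (median 162) and from 124 to 176 RPM in Saline rats (median 160). Of the LSD rats, 5 lay above the Saline median and none above every Saline rat, and the log2 fold change was 0.04 (SE 0.060, edgeR adjusted p = 0.694). Without the 4 rats high in striatum markers it was -0.03 (edgeR adjusted p = 0.753).

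Cry1 was read at 130 to 444 counts per library. It ranged from 10.04 to 17.5 RPM in LSD rats (median 12.8) and from 9.64 to 13.0 RPM in Saline rats (median 12.0), and 5 LSD rats lay above every Saline rat. The log2 fold change of 0.19 (SE 0.095) did not pass (edgeR adjusted p = 0.183). It was 0.11 without the 4 rats (edgeR adjusted p = 0.463) and 0.12 after the correction for gene span described below (edgeR adjusted p = 0.478). Its coefficient of variation was 19.7% in LSD and 7.83% in Saline rats, a difference that was not tested. LSD replicates 7 to 10 held the 4 highest values, 15.3, 14.6, 17.3 and 17.5 RPM, against 10.04 to 13.3 in the other 6.

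The REV-ERB receptors are paralogues that bind heme and repress Arntl and other RORE-bearing genes. Nr1d2, which encodes REV-ERB beta, ranged from 88.0 to 114 RPM in LSD rats (median 99.6) and from 66.4 to 94.0 RPM in Saline rats (median 75.8). Only Saline replicate 10, at 94.0 RPM, lay within the LSD range, and 7 LSD rats lay above it. LSD replicates 7 to 10, the largest LSD libraries, held the highest values, 103 to 114 RPM, against 88.0 to 101 in LSD replicates 1 to 6. Saline rats were split likewise. Replicates 1, 3, 4 and 5, the smallest Saline libraries, held the lowest Saline values, 66.4 to 72.5 RPM, against 74.0 to 94.0 in the others. With all libraries drawn down to the same number of reads the log2 fold change was 0.37 (edgeR adjusted p = 0.00416). LSD libraries were also the larger by median. The cause of the split within each group, and the part of library size in the difference, were not tested. The means were 101 ± 8.51 RPM in LSD and 77.3 ± 8.68 in Saline rats (SD, n = 10 each). The difference was 1.30-fold, a log2 fold change of 0.38 (SE 0.063, edgeR adjusted p = 0.00357), and ranked 17 by p among all genes tested. It was 0.39 without the 4 rats high in striatum markers (edgeR adjusted p = 0.00462).

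Nr1d1, which encodes REV-ERB alpha, ranged from 137 to 225 RPM in LSD rats (median 180) and from 117 to 236 RPM in Saline rats (median 199). Only 3 LSD rats lay above the Saline median and none above every Saline rat. The log2 fold change was -0.14 (SE 0.105, edgeR adjusted p = 0.401), and -0.20 without the 4 rats high in striatum markers (edgeR adjusted p = 0.138). The lowest value of all belonged to Saline replicate 2, whose nearest neighbour in its group stood at 188 RPM. Within the LSD group the lowest values were those of replicates 7 to 10, at 137 to 156 RPM. The same 4 rats were highest in Cry1 and Nr1d2 and had the largest LSD libraries.

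Nr1d1 overlaps Thra, a thyroid hormone receptor gene on the opposite strand, and the strand setting of the read counting is not given in the sources used here. Reads of the overlap may therefore have been credited to neither or to either gene. Thra, with 7289 to 14533 reads per library, was lower in LSD rats, with 570 ± 42.8 RPM against 662 ± 59.8 in Saline rats (SD, n = 10 each) and a log2 fold change of -0.22 (SE 0.056, edgeR adjusted p = 0.0152). Its part in the value of Nr1d1 was not tested.

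Ciart encodes CHRONO, a protein that binds BMAL1 and represses CLOCK-BMAL1. It ranged from 14.1 to 23.5 RPM in LSD rats (median 15.99) and from 7.81 to 17.3 RPM in Saline rats (median 13.95). All 10 LSD rats exceeded the Saline median, 3 exceeded every Saline rat, and 7 Saline rats lay below every LSD rat. The log2 fold change of 0.36 (SE 0.130) did not pass by the quasi-likelihood test (edgeR adjusted p = 0.0628). Ciart lay near the threshold, and it passed under DESeq2 (adjusted p = 0.0366), with scaling by total counts (0.40, edgeR adjusted p = 0.0416) and without the 4 rats high in striatum markers (0.39, edgeR adjusted p = 0.0343). It also passed on leaving out Saline replicate 8 or Saline replicate 9 alone (edgeR adjusted p = 0.0484 and 0.0434). Replicates 2 and 9 bounded the Saline group at its lowest and highest values.

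Bhlhe40 and Bhlhe41 encode DEC1 and DEC2, which occupy E-boxes and thereby oppose CLOCK-BMAL1. Bhlhe40 ranged from 129 to 174 RPM in LSD rats (median 146) and from 103 to 154 RPM in Saline rats (median 127). All 10 LSD rats exceeded the Saline median and 4 exceeded every Saline rat. The means were 149 ± 15.3 and 127 ± 16.7 RPM (SD, n = 10 each), with a log2 fold change of 0.22 (SE 0.073, edgeR adjusted p = 0.0402). This call lay close to the threshold. It was lost with all libraries drawn down to the same number of reads (0.19, edgeR adjusted p = 0.0619), without the 4 rats high in striatum markers (0.19, edgeR adjusted p = 0.0729) and on leaving out any 1 of 9 rats (LSD replicates 3, 5, 6, 8 and 10 and Saline replicates 1, 3, 4 and 9, edgeR adjusted p from 0.0598 to 0.0754).

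Bhlhe41 ranged from 60.3 to 74.6 RPM in LSD rats (median 65.6) and from 50.3 to 70.7 RPM in Saline rats (median 60.5). The Saline median was exceeded by 8 LSD rats, and 2 exceeded every Saline rat. Its log2 fold change of 0.12 (SE 0.059) did not pass (edgeR adjusted p = 0.169), and without the 4 rats high in striatum markers it was 0.17 and passed (edgeR adjusted p = 0.0313). Per2, Per3 and Nr1d2 passed whichever single rat was left out, the only 3 of the 10 genes to do so.

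**Figure D2:**
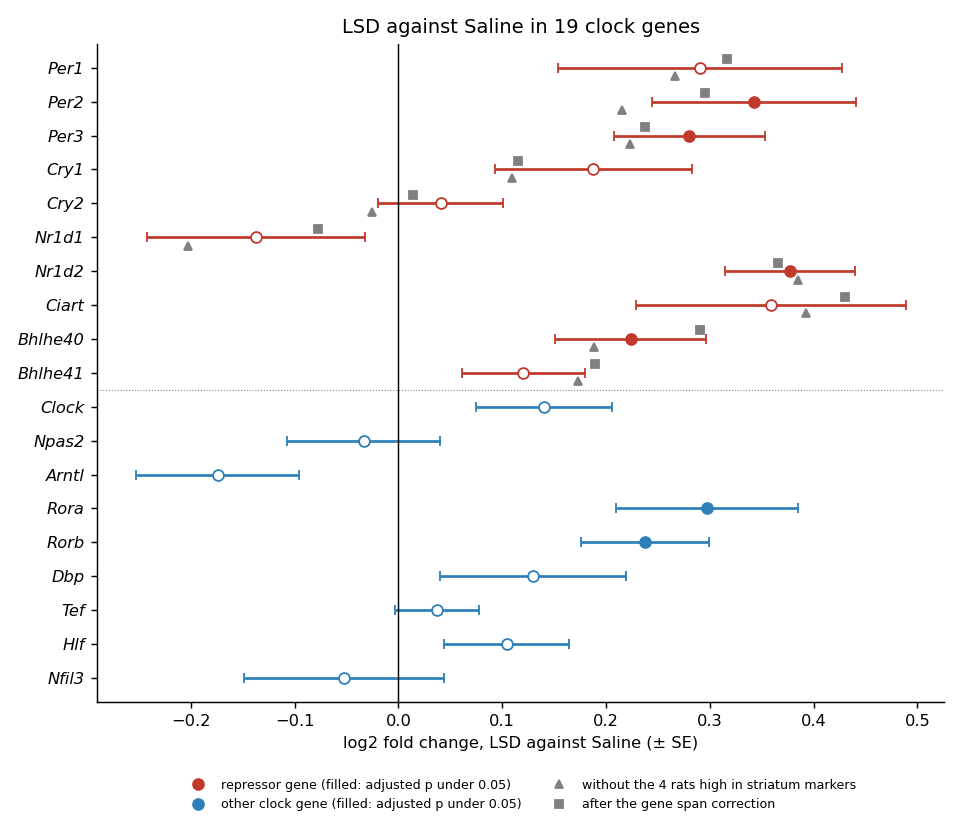
Log2 fold change of LSD against Saline rats with its SE for the 10 repressor genes (red) and 9 other clock genes (blue), with filled circles at an edgeR adjusted p under 0.05. Grey triangles are the values without the 4 rats high in striatum markers and grey squares those after correction for gene span, and Nr1d2, at 0.38, lies at 0.39 and 0.37 there.

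The genes that drive the loop were compared next. Among activators of the loop, 5 genes kept by the filter were tested. Rora and Rorb, receptors that activate Arntl through the same RORE sites that the REV-ERBs occupy, were higher, with log2 fold changes of 0.30 (SE 0.087, edgeR adjusted p = 0.0261) and 0.24 (SE 0.062, edgeR adjusted p = 0.0156). Clock had a log2 fold change of 0.14 (edgeR adjusted p = 0.148) and Npas2 one of -0.03 (edgeR adjusted p = 0.806), and neither passed. Arntl stood at 28.5 ± 2.96 RPM in LSD and 32.2 ± 4.73 RPM in Saline rats (SD, n = 10 each), a log2 fold change of -0.17 that did not pass (SE 0.079, edgeR adjusted p = 0.134). With the 4 rats left aside Rora and Rorb still passed (0.30 and 0.21, edgeR adjusted p = 0.0277 and 0.0316), and Clock (0.12), Npas2 (-0.08) and Arntl (-0.14) did not (edgeR adjusted p from 0.0840 to 0.503).

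A correction for gene span, the distance from a gene's start to its end, changed calls among these genes. It removes from each rat the trend of its levels with span. After it, Arntl passed as lower at -0.26 on the log2 scale (edgeR adjusted p = 0.0352) and neither Rora nor Rorb passed. Among the repressors it added Ciart (0.43, edgeR adjusted p = 0.0337) and Bhlhe41 (0.19, edgeR adjusted p = 0.0422) to the 4 genes already higher. Of those, Per2 (0.30, edgeR adjusted p = 0.0491) and Per3 (0.24, edgeR adjusted p = 0.0367) fell but still passed. Nr1d2 stood at 0.37 and Bhlhe40 rose to 0.29. Over all 16605 genes tested, 556 were called higher in that fit.

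None of the 4 output transcription factors driven by the clock passed in the quasi-likelihood test, at an unadjusted p under 0.05 or under DESeq2. Dbp had a log2 fold change of 0.13 (edgeR adjusted p = 0.344), Hlf one of 0.10 (edgeR adjusted p = 0.249), Tef one of 0.04 (edgeR adjusted p = 0.577) and Nfil3, which represses D-box genes, one of -0.05 (edgeR adjusted p = 0.761). With the 4 rats left aside none passed (edgeR adjusted p from 0.206 to 0.870), and Nfil3 stood at 0.03. These are the factors that bind D-boxes such as the one marked in the Per2 promoter above.

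Of 24 regulators of the repressor proteins (kinases, ubiquitin ligases, phosphatases and cofactors), 2 were higher and 1 lower, and the median over the 24 was 0.01 on the log2 scale. These counts lie near the shares over all genes tested, 6.48% higher and 8.54% lower. Usp7, a deubiquitinase that stabilises CRY1, had a log2 fold change of 0.15 (SE 0.046, edgeR adjusted p = 0.0285). Sfpq, an RNA-binding partner of PER complexes, had one of 0.18 (SE 0.055, edgeR adjusted p = 0.0271). Csnk2b, the regulatory subunit of casein kinase 2, had one of -0.15 (SE 0.051, edgeR adjusted p = 0.0417). Casein kinase 1 and the F-box proteins that set the lifetime of PER and CRY were not among those that passed.

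Genes that report neuronal activity and glucocorticoid signalling, both of which act on Per1 and its relatives, were summed in each rat. Of 12 activity genes such as Fos, Arc and Egr1, none passed in the quasi-likelihood test, at an unadjusted p under 0.05 or under DESeq2. In 11 of them the fold change was above 0 (median 0.18), and their sum ran from 850 to 2052 RPM in LSD and from 553 to 2048 RPM in Saline rats. Of 12 glucocorticoid-responsive genes none passed the quasi-likelihood test, 3 had an unadjusted p under 0.05 upward and DESeq2 called 2 higher. In 10 of them the fold change was above 0 (median 0.15), with sums of 416 to 592 RPM in LSD and 380 to 487 RPM in Saline rats. Just outside the threshold lay Tsc22d3 with a log2 fold change of 0.33 and Hif3a with one of 0.72 (edgeR adjusted p = 0.0550 and 0.0551). Hif3a was read only 7 to 84 times per library, with means of 1.98 RPM in LSD and 1.21 in Saline rats. Cdkn1a (-0.23) and Mt2A (-0.26) had fold changes below 0 (edgeR adjusted p = 0.208 and 0.337).

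Ratios of reads within a rat do not depend on the scaling of libraries, and 10 ratios among the repressors and Arntl were compared by exact two-sided permutation tests over every division of the 20 rats into 2 groups of 10, adjusted over the 10. Nr1d2 relative to its paralogue Nr1d1 was higher in LSD rats, with a difference in mean log2 ratio of 0.52 ± 0.155 (SE, n = 10 each, exact p = 0.00452, adjusted p = 0.0113). All 10 LSD rats lay above the Saline median. The difference was 0.61 without the 4 rats high in striatum markers (exact adjusted p = 0.0131). The LSD group was split, with log2 ratios from -0.58 to -0.31 in replicates 7 to 10, the largest LSD libraries. In LSD replicates 1 to 6 they ran from -1.26 to -0.84, nearer the Saline mean of -1.33. Saline replicate 2, the largest Saline library, had the highest ratio of its group, -0.60. Saline replicates 1, 3, 4 and 5, the smallest Saline libraries, had the lowest, -1.70 to -1.46. The part of these rats, or of library depth, in the difference was not tested. The overlap of Nr1d1 with Thra bears on the denominator of this ratio.

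Relative to Arntl, 3 repressors were also higher, Arntl being the gene at the other end of the loop. The difference in mean log2 ratio was 0.55 ± 0.115 for Nr1d2 (SE, n = 10 each, exact adjusted p = 0.00379), 0.53 ± 0.153 for Per2 (exact adjusted p = 0.00455) and 0.45 ± 0.135 for Per3 (exact adjusted p = 0.0113). In each of them all 10 LSD rats lay above the Saline median. Nr1d1 relative to Arntl differed by 0.03 ± 0.156 (exact adjusted p = 0.876). Without the 4 rats, Nr1d2 and Per2 still passed relative to Arntl (0.53 and 0.35, exact adjusted p = 0.0131 and 0.0408), and Per3 did not (0.36, exact adjusted p = 0.0555).

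Ratios between the other paralogues did not pass. Differences in mean log2 ratio were 0.05 ± 0.126 for Per2 to Per1, -0.02 ± 0.127 for Per3 to Per1, -0.08 ± 0.0830 for Per3 to Per2, -0.12 ± 0.122 for Cry2 to Cry1 and -0.10 ± 0.102 for Bhlhe41 to Bhlhe40 (SE, n = 10 each, exact adjusted p from 0.533 to 0.876).

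**Figure D3:**
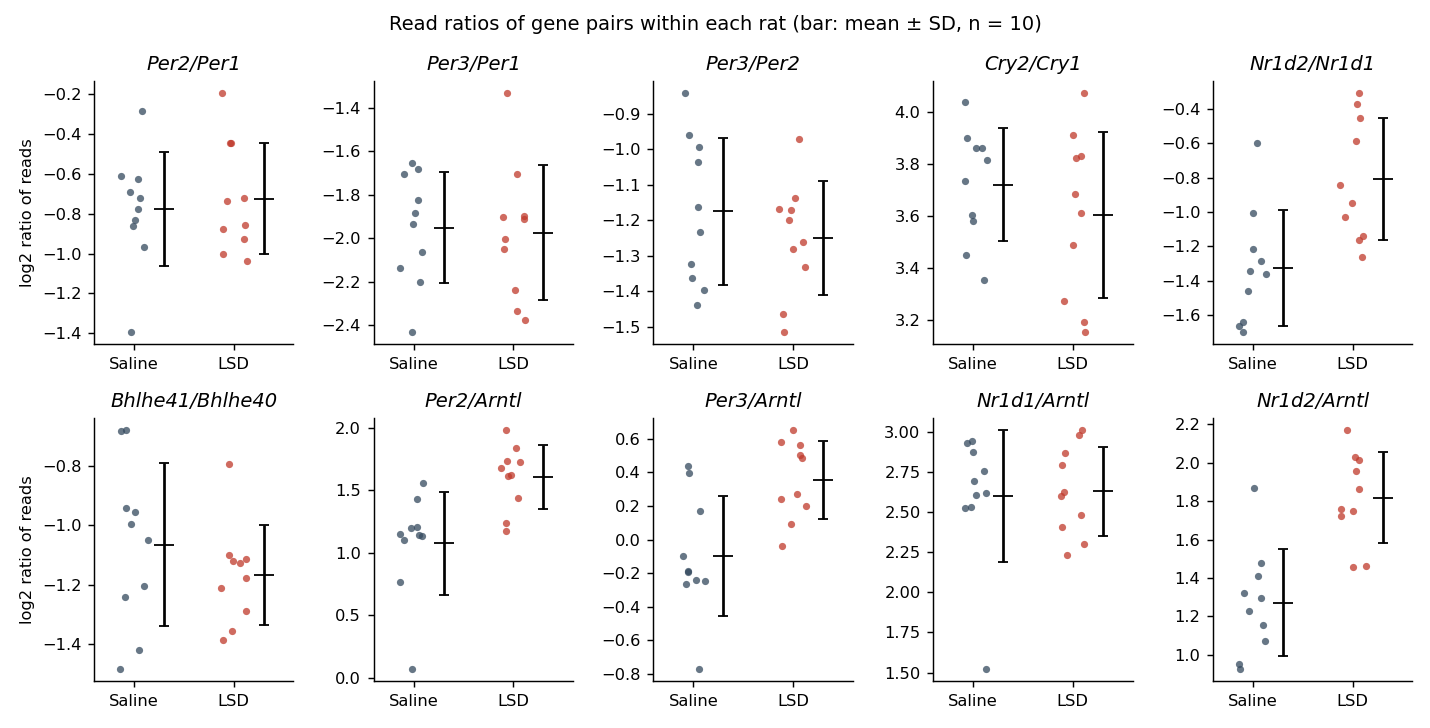
Log2 ratio of reads between 2 genes within each rat, 1 point per rat, with the mean and SD of each group of 10 as a bar. The mean log2 ratio of Nr1d2 to Nr1d1 is -0.81 in LSD and -1.33 in Saline rats, and that of Nr1d2 to Arntl is 1.82 and 1.27.

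LSD replicate 6 was among the 5 highest of the 20 rats in 9 of the 10 genes, LSD replicate 5 in 7 and LSD replicate 10 in 6. At the other end, Saline replicate 2 was among the 5 lowest in 7 genes, and it was the lowest Saline rat in Per2, Per3, Nr1d1, Ciart and Bhlhe40. Saline replicates 1 and 9 were each among the 5 lowest in 6 genes. Saline replicate 9 was the lowest in Per1 and Cry2 and yet the highest Saline rat in Ciart and Bhlhe41. Saline replicates 2 and 9 are among the 4 rats high in striatum markers, as are Saline replicate 8 and LSD replicate 9.

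**Figure D4:**
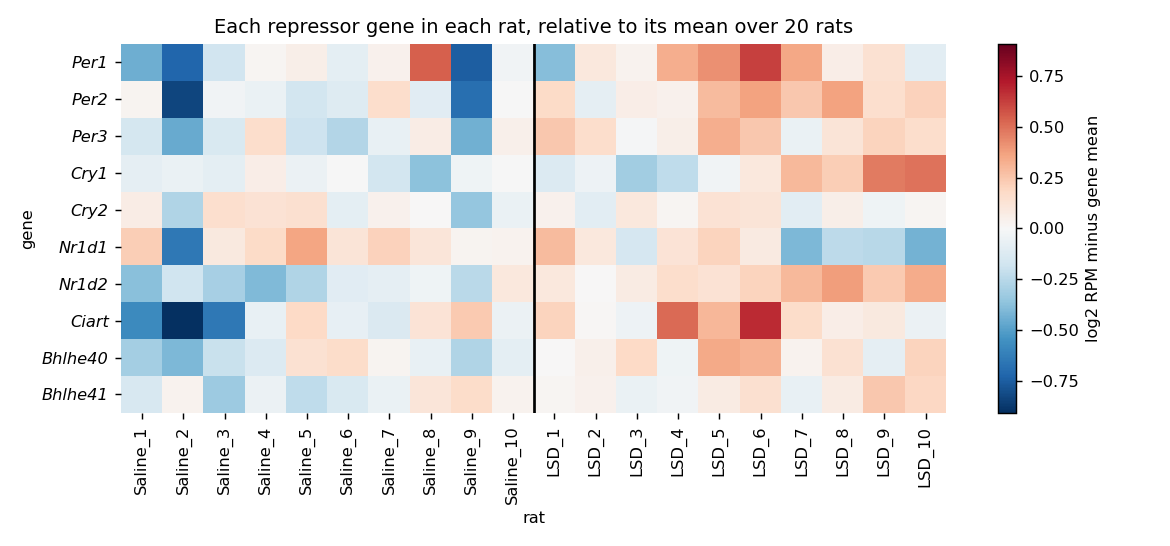
Log2 RPM of each repressor gene (rows) in each rat (columns) minus the gene's mean over the 20 rats, with Saline rats left and LSD rats right of the line, red above and blue below the mean. Saline replicate 2 is low in most genes, and in LSD replicates 7 to 10 Cry1 is high while Nr1d1 is low.

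To see which genes varied together apart from treatment, each gene's log2(RPM + 1) was centred within its group, and 115 relations were tested over the 20 rats with 100000 shuffles within groups. Of the 45 pairs of repressors, 32 had a positive Pearson's r (median 0.253, range -0.525 to 0.758), 16 had an unadjusted p under 0.05 and 0 an adjusted p under 0.05. The highest was Per2 with Cry2 at r = 0.758 (permutation p = 0.00365, adjusted p = 0.0839) and Spearman's rho = 0.600 (permutation p = 0.00712, adjusted p = 0.112). Without the 2 rats farthest from the median of Per2, r was 0.267, so the relation rests on those rats. With Arntl, all 10 repressors had a negative r (median -0.249), and 0 passed the adjusted threshold, 2 having an unadjusted p under 0.05. The shared sign did not hold throughout, since 7 of the 10 kept it without the 2 rats farthest from the median of the repressor, and Nr1d1 had r = 0.127 without the 4 rats high in striatum markers.

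Nr1d2 had 2 of the 4 relations that passed. It was lower in rats of the same group with more Npas2, with r = -0.700 (permutation p = 0.000410, adjusted p = 0.0236) and rho = -0.765 (permutation p = 0.000160, adjusted p = 0.0178). Within groups r was -0.696 in LSD and -0.735 in Saline rats, and without the 2 rats farthest from the median of Nr1d2 it was -0.617. With all libraries drawn to the same number of reads it was -0.719. Among LSD rats, replicates 7 to 10, the largest LSD libraries, were highest in Nr1d2 and lowest in Npas2. Among Saline rats, replicates 1, 3, 4 and 5, the smallest Saline libraries, were lowest in Nr1d2 and highest in Npas2. Leaving out 2 rats does not remove these splits, which run through both groups, and their part in r was not tested. Nr1d2 was higher in rats with a higher mean of the 12 glucocorticoid-responsive genes, with r = 0.720 (permutation p = 0.000300, adjusted p = 0.0236) and rho = 0.744 (permutation p = 0.000310, adjusted p = 0.0178). Here r was 0.665 in LSD and 0.865 in Saline rats and 0.695 without the 2 farthest rats. LSD replicates 7, 9 and 10 held the highest LSD values of that mean. Without the 4 rats high in striatum markers r was -0.740 and 0.708 (permutation adjusted p = 0.0480 each), but neither rho passed (-0.676 and 0.724, permutation adjusted p = 0.131 and 0.116).

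**Figure D5:**
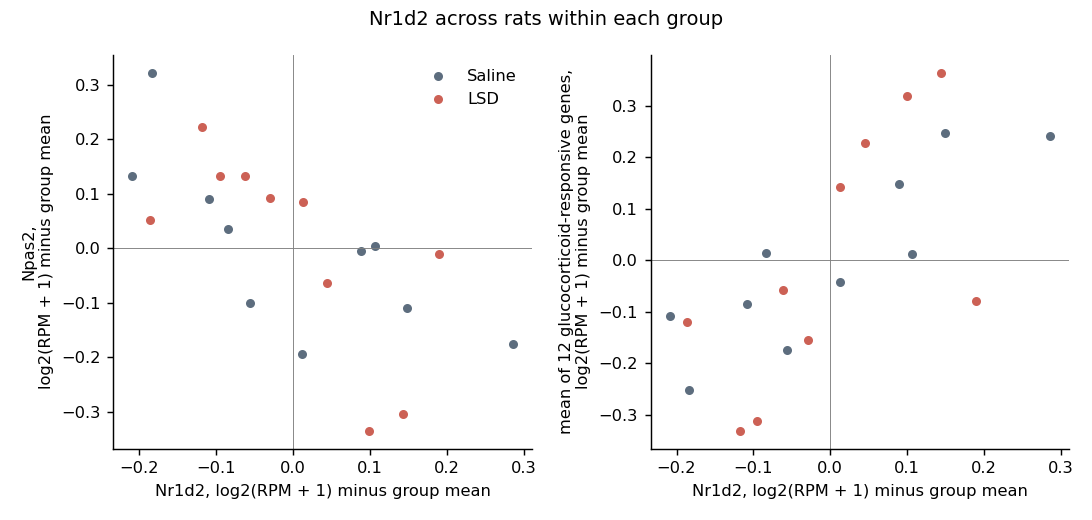
Nr1d2 (horizontal axis) against Npas2 (left) and against the mean of 12 glucocorticoid-responsive genes (right), all as log2(RPM + 1) minus the mean of the rat's own group, 1 point per rat. Points fall from left to right in the Npas2 panel (r = -0.700) and climb in the other (r = 0.720) in both groups.

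Nr1d1 went the opposite way to its paralogue in relation to Npas2, with r = 0.684 (permutation p = 0.00147, adjusted p = 0.0480) and rho = 0.663 (permutation p = 0.00273, adjusted p = 0.105), and r = 0.618 without the 2 farthest rats. LSD replicates 7 to 10 were the lowest of their group in both genes and the highest in Cry1, so such relations share that split. Ciart followed Dbp, with r = 0.682 (permutation p = 0.00167, adjusted p = 0.0480) and rho = 0.583 (permutation p = 0.00916, adjusted p = 0.112). That relation was uneven, with r = 0.190 in LSD and 0.885 in Saline rats, a difference that was not tested, and r = 0.450 without the 2 farthest rats. No rho of these 2 relations passed the adjusted threshold. With the 4 rats left aside neither passed by r, at 0.692 for Nr1d1 with Npas2 (permutation adjusted p = 0.0960) and 0.536 for Ciart with Dbp (permutation adjusted p = 0.198). There Cry1 passed by r with Npas2 (-0.730) and with the glucocorticoid-responsive genes (0.776, permutation adjusted p = 0.0480 each), but not by rho (-0.629 and 0.715, permutation adjusted p = 0.198 and 0.131). With no rat left aside, these 2 relations had opposite signs in the 2 groups. For Npas2 r was -0.824 in LSD and 0.170 in Saline rats, and for the glucocorticoid-responsive genes 0.890 and -0.354. The difference between groups was not tested. Over the 20 rats, 4 of the 115 relations passed by r.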

How the data were processed

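RNA from the mPFC of 20 rats (10 LSD, 10 Saline, grouped by their labels) was sequenced with 1 library per rat. The authors trimmed reads with TrimGalore, and the submitters' processing notes name HISAT2, HTSeq and the rn6 (Rnor_6.0) build. The deposited values are raw counts per gene, neither normalised nor filtered. Tool versions, the annotation and the strand setting are not given in the sources used here. The 5 entries without a gene name (25.5 to 29.0% of reads) entered no step.

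Counts were tested with edgeR 4.0.16 in R 4.3.3 (quasi-likelihood F test, TMM factors, 16605 genes with at least 5 reads in 10 or more libraries, Benjamini-Hochberg adjustment, threshold 0.05), where the study's methods used DESeq2. DESeq2 1.42.0 was run as an alternative, with other scalings and filters, libraries drawn to 11098076 reads, 1 surrogate variable (sva 3.50.0), the replicate number as a block, a gene span correction (50 bins smoothed over 5, GRCr8 spans for 90.0% of the genes) and each rat left out. The fit without 4 rats high in striatum markers was added after seeing the data. Ratios and correlations were tested by permutation over rats. P-values set a difference or correlation against the variation between these rats, and the number of rats and the depth set the precision. The fit was tested on simulated data.

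Named are the 10 genes, those past the threshold in the other lists (clock activators, outputs, repressor regulators, activity genes, glucocorticoid response, cell type and striatum markers), the remaining clock genes listed, and the 5 genes most and least like the mean of the 10. Thra, Tsc22d3, Hif3a, Cdkn1a and Mt2A were named after their values were seen. The genes and lists were chosen with earlier results of these data known.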

Additional observations from a re-analysis of the deposited data

Results flagged for a closer look

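Of 32 groups of 10 rats examined (each of the 10 genes and 6 marker sums in each treatment group), 4 had a rat that stood apart from its neighbours by more than Dixon's 95% limit for 10 values. Chance alone flags about 1 in 20 groups. Per1 in Saline replicate 8 stood at 186 RPM, with the next Saline rat at 133 and a gap of 0.487 of the range. Nr1d1 in Saline replicate 2 stood at 117 RPM, with the next at 188 and a gap of 0.593. The summed microglia markers of LSD replicate 3 came to 543 RPM, with the next LSD rat at 392.5 and a gap of 0.773. The summed striatum markers of LSD replicate 9 came to 554 RPM, with the next at 346 and a gap of 0.761.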

How the results depend on the processing

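The SE of the fold changes, 0.059 to 0.136 on the log2 scale among the 10 repressors, limits what could be called. Of the 10 repressors, 3 to 6 were called higher under any setting. Same-numbered rats correlated at a mean of 0.145 (6 of 10 pairs over 0.1), and rats of other numbers at -0.0157. Only 1 LSD rat correlated best with its own number. The main fit did not take the numbers as pairing, and the correlations were not adjusted for them. With the number as a block, the SE fell from 0.073 to 0.048 in Bhlhe40 and from 0.063 to 0.046 in Nr1d2. It rose from 0.073 to 0.079 in Per3, and genes called higher went from 1076 to 1355. A structure shared by number was not tested further. With the replicate block, Ciart passed (0.37, edgeR adjusted p = 0.0296), and with span correction and block together Ciart (0.44, adjusted p = 0.0171) and Bhlhe41 (adjusted p = 0.0236) passed and Per3 did not (0.24, adjusted p = 0.0529). The causes of the following changes were not tested. Genes called higher numbered 1691 without the 4 rats high in striatum markers, 556 after span correction, and 659 (without LSD replicate 8) to 1681 (without Saline replicate 2) with 1 rat left out. Genes called lower numbered 836 with no filter, 858 with total counts, and 907 to 1867 with the same rats left out. Activators called higher were 0, and called lower 1, after span correction with or without the block, and outputs called higher were 1 (Dbp) with both. Repressor regulators called higher were 4 with 1 surrogate variable or the block, 5 with DESeq2, the 10-read filter or total counts, 1 at equal depth or after span correction with or without the block, and 0 to 4 with 1 rat left out. Repressor regulators called lower were 0 at equal depth, with no filter, the block or total counts, and 0 to 1 with 1 rat left out. Activity genes called higher were 2 with the block, also with span correction. Glucocorticoid-responsive genes called higher were 2 with 1 surrogate variable, DESeq2, the block or the 4 rats left aside, 1 with the 10-read filter, equal depth, total counts or span correction with block, and 0 to 2 with 1 rat left out, and 1 was called lower with the surrogate variable. Without the 4 rats, the signs of Cry2 (-0.0253) and of the log2 ratios Per2 to Per1 (-0.0351), Per3 to Per2 (0.0136) and Nr1d1 to Arntl (-0.0857) reversed. With 1 rat left out, Per2 to Per1 ran from -0.0166 to 0.107, Per3 to Per1 from -0.0947 to 0.0212 and Nr1d1 to Arntl from -0.0905 to 0.0733. The 4 ratios that passed did so in each leave-out and in an exact sign-flip test of same-numbered rats (adjusted p from 0.00977 to 0.0244). Correlations past the threshold numbered 7 with total counts, 2 at equal depth, 0 in LSD rats alone and 1 in Saline rats alone.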

Other observations

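Outside the clock lists, the genes whose group-centred levels most resembled the mean of the 10 repressors over the 20 rats were Midn (r = 0.771), Cpsf4 (r = 0.751), Osbpl11 (r = 0.750), Irs2 (r = 0.744), an adaptor of insulin signalling, and Lrig1 (r = 0.735), a negative regulator of growth factor receptors. At the other end lay Cd180 (r = -0.759), a receptor-like protein of immune cells, Arl11 (r = -0.748), Pole2 (r = -0.734), Sh3yl1 (r = -0.724) and Rpp30 (r = -0.710). None of these 10 genes passed the comparison of LSD with Saline rats (edgeR adjusted p from 0.164 to 0.957). The points share their libraries and depths, Pole2 was read only 3 to 23 times per library, and these are the extremes of a search over all genes kept, given as a description.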
